A study of Mus musculus with 104 samples.

Results

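The regions described here were 1 kb tiles of the mouse genome with an intermediate number of CpG dinucleotides that lay away from CpG islands. A tile belonged to the set if it was on chromosomes 1 to 19, held 15 to 29 CpGs, had at least 20 bisulfite reads in each of 3 methylation pools, and had no tile of 50 or more CpGs (an island tile) within 2 tiles on either side. The rule used CpG numbers and read depth and no methylation value. It kept 144738 of the 258057 tiles with 20 or more reads in each pool. At any depth, 245192 of 2365723 tiles had the CpG number and the distance from islands, and those with fewer reads are not described.

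Methylation was measured by STEM-seq, which adapts bisulfite sequencing to few cells, in Kmt2b-/- (KO) epiblast of embryonic day 6.5 embryos (3 samples), KO head of day 8.5 embryos (2 samples) and wild-type (WT) head of day 8.5 embryos (2 samples). Kmt2b encodes a histone methyltransferase of lysine 4 of histone H3, both KO groups carry the same genotype, and the heads were cut off close to the neck. The series design names matings of DBA2 males with C57BL/6N females for its dissected lineages. The deposited methylation values pool the samples of a group, so each group gave 1 value per tile, no spread between embryos could be computed, and the tests below compare pools of reads and not conditions. A WT epiblast methylation pool was not analysed here.

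The 3 pools held 29138288 (KO epiblast), 42047812 (KO head) and 45262929 reads (WT head) at CpGs, which on the autosomes came to 1.40, 2.01 and 2.17 reads per CpG. Reads were counted at each CpG and then summed, so a molecule that covers several CpGs is counted at each of them. A number of reads given here, also in the rule for the set, is therefore not a number of molecules. The median tile of the set held 19 CpGs and had 32, 45 and 48 reads in KO epiblast, KO head and WT head. These reads fell on a median of 14, 16 and 16 of its CpGs, so the CpGs behind a tile's level differed from pool to pool. RNA of 4 groups (WT and KO, epiblast and head), from other samples and with 1 group more than methylation, was deposited as 1 merged FPKM value per gene and group and is given below as values with no test. The targeted gene, listed under its older symbol Wbp7, was at 0.701 FPKM in the WT and 0.308 in the KO epiblast, and at 0.600 in the WT and 0.133 in the KO head. It was lower in the KO at both stages, at levels under 1 FPKM throughout.

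In mammals most cytosines of CpG dinucleotides carry a methyl group, placed by DNMT3A and DNMT3B and copied at replication by DNMT1 with UHRF1. CpG islands, the dense clusters of CpGs found at many gene starts, are the usual exception, and the TET enzymes can remove the mark by oxidation. DNA of intermediate CpG density lies between those states: it holds enough CpGs to be a target of methylation and too few to make an island, and it includes weak promoters, enhancers and repeats.

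To show what such DNA looks like, the 250 bases before 6 gene starts that lie in tiles of the set are printed 5′ to 3′ on the gene's strand, with each CpG in capitals. They were taken from the RefSeq promoters of build GRCm38.p6, and each was placed on the mm9 coordinates of the methylation files by its pattern of CpG spacing. The first pair stands for expressed genes with opposite levels (Gja1 unmethylated and Nt5dc2 methylated in each pool), the second pair for a difference between KO and WT head (Asb4 and Cyp11a1), and the third for a difference between KO epiblast and KO head (Plin2 and Fggy).
Gja1, start at chr10:56097106, plus strand: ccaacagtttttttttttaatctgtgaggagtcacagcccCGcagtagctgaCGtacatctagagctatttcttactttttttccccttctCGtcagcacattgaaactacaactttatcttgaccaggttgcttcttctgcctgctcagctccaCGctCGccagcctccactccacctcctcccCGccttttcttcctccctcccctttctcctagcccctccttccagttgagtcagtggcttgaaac
Nt5dc2, start at chr14:31947922, plus strand: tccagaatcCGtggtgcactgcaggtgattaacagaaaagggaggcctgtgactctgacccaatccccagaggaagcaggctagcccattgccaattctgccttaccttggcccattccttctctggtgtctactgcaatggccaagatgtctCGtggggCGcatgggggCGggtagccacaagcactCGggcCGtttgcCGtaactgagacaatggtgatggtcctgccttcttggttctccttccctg
Asb4, start at chr6:5333386, plus strand: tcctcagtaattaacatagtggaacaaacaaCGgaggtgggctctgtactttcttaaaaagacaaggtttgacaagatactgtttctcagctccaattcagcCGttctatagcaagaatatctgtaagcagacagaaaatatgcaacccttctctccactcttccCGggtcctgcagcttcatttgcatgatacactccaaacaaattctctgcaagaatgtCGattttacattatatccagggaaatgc
Cyp11a1, start at chr9:57845831, plus strand: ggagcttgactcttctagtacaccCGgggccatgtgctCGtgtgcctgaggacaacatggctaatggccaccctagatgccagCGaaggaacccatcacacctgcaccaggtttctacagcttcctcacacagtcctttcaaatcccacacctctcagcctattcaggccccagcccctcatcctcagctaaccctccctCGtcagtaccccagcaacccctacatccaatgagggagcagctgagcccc
Plin2, start at chr4:86315963, minus strand: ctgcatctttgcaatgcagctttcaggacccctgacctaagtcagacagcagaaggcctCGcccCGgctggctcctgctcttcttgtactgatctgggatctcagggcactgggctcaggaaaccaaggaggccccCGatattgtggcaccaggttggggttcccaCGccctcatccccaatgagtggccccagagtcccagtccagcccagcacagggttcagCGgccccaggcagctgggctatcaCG
Fggy, start at chr4:95224198, plus strand: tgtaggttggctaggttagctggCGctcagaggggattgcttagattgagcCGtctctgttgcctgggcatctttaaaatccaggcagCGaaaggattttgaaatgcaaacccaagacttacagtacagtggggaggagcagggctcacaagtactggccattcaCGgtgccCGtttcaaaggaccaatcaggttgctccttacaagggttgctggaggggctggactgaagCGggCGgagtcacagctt
These 250 bases held 4 to 7 CpGs and 40.8 to 61.6% G and C. Gja1 with 6 CpGs and Nt5dc2 with 7 were nearly equal in CpG number, and their levels, given below, lay at opposite ends of the scale.

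Most of the tiles were methylated in each pool, and a small group was not. The median level, as the methylated share of all reads of a tile, was 80.6% in the KO epiblast, 84.0% in the KO head and 84.9% in the WT head. The middle 50% of tiles lay between 69.2 and 88.2%, 73.7 and 90.5%, and 75 and 90.9%. Tiles at 80% or more made up 52.4%, 62.8% and 65.5% of the set, and tiles under 20% made up 2.65%, 3.02% and 3.28%. The KO epiblast thus had the lowest median, the fewest tiles at 80% or more and also the fewest under 20%, and the 2 heads lay closer to each other than to the epiblast. With 1 pool a group these differences have no replicate check.

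Distance from islands separated these tiles from others of equal density. Tiles of 15 to 29 CpGs that did have an island tile within 2 tiles (n = 8631) had medians of 46.9%, 43.1% and 40.4% in KO epiblast, KO head and WT head, with 26.8%, 31.5% and 34.1% of them under 20%. Beyond that limit the gradient was shallow. Tiles 3 tiles from an island tile (n = 2642) had medians of 77.3%, 81.3% and 81.9% and 7.72%, 8.97% and 9.24% of tiles under 20%. Those more than 50 tiles away (n = 67555) had medians of 81.0%, 84.4% and 85.2% and 2.04%, 2.43% and 2.69% under 20%. Over all 258057 tiles the medians were 78.3%, 81.9% and 82.8%, and 10.7%, 11.6% and 12.1% were under 20%.

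CpG number changed the size of the unmethylated group far more than the median. Tiles of 15 CpGs had medians of 81.0%, 84.0% and 84.9% (KO epiblast, KO head, WT head) and tiles of 29 CpGs 78.4%, 83.3% and 84.3%. The share under 20% went from 1.16%, 1.08% and 1.16% at 15 CpGs to 2.39%, 2.53% and 2.92% at 20 CpGs and 11.4%, 13.9% and 15.5% at 29 CpGs. Just outside the rule the values continued without a step: tiles of 14 CpGs had 1.19%, 1.01% and 0.969% under 20%, and tiles of 30 CpGs 11.6%, 14.7% and 16.3%. Among tiles of 30 to 49 CpGs away from islands (n = 16111) the shares were 28.0%, 33.0% and 34.8%. The chromosomes resembled each other, with medians of 82.8 to 85% in the KO head over the 19 of them.

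**Figure D1:**
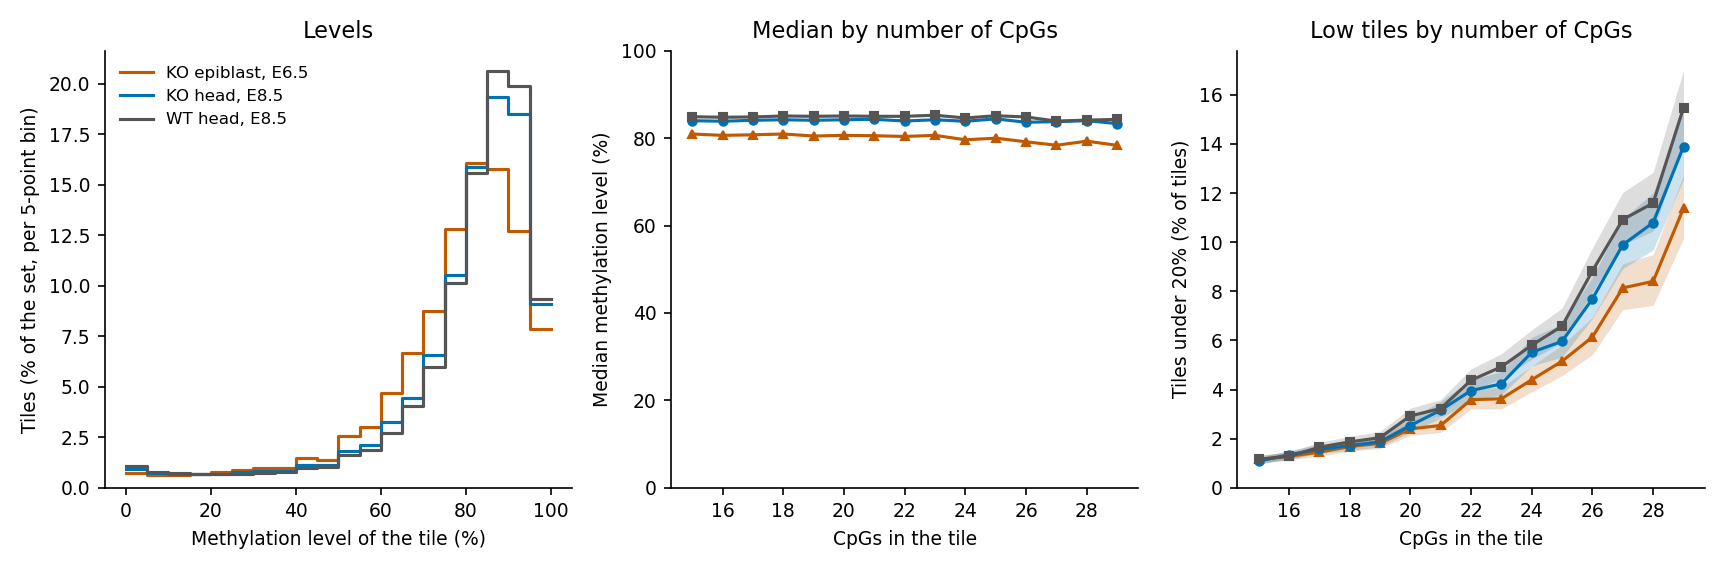
Methylation levels of the 144738 tiles in KO epiblast, KO head and WT head pools. Left, percent of tiles in each 5-point class of level; middle, median level against the number of CpGs in the tile; right, percent of tiles under 20% against the number of CpGs, with 95% Wilson bands. The medians stay between 78 and 86% at every CpG number, and the share under 20% climbs from about 1% at 15 CpGs to 11.4, 13.9 and 15.5% at 29.

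A set of 2458 tiles (1.70%) was under 20% in each of the 3 pools, and 1088 of them were under 10%. At the other end, 51196 tiles (35.4%) were at 80% or more in each pool. Another 3626 tiles (2.51%) lay between 35 and 65% in each. The unmethylated tiles were richer in CpGs: 40.03% of them held 25 or more, against 11.8% of all members. They were also closer to gene starts. A matched RefSeq start lay inside 15.9% of them (392 tiles) and within 1 kb of 26.6%, against 1.88% (2725 tiles) and 3.23% of all members, and the median distance was 8.91 kb against 31.4 kb. Since only gene starts with at least 5 CpGs in 300 bases could be matched, these shares are lower limits and lean towards CpG-rich tiles.

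Within the set, most unmethylated tiles had no unmethylated member next to them. The 2458 tiles formed 2023 single tiles, 182 runs of 2, 18 runs of 3, 3 runs of 4 and 1 run of 5. Only members were counted, so a neighbour outside the set by CpG number or read depth ended a run whatever its level. The run numbers therefore do not give the length of unmethylated stretches. The run of 5 was at chr1:75442000-75446999 in mm9, with 109 CpGs, and had levels of 1.75%, 3.44% and 0.976% in KO epiblast, KO head and WT head over 228, 320 and 410 reads. Its nearest matched start, of Gm32506, was 7.15 kb from its edge. The run of 4 at chr3:95707000-95710999 held 85 CpGs at 0.694%, 3.38% and 1.78%, and the start of Car14, a membrane-bound carbonic anhydrase, lay inside it at chr3:95708608. A run at chr5:120110000-120113999 had 99 CpGs at 4.12%, 3.02% and 2.08%, 7.52 kb from the start of Tbx3os1, an antisense transcript of the T-box gene Tbx3. One at chr11:96152000-96155999 had 94 CpGs at 2.34%, 2.83% and 2.80%, 8.78 kb from the start of Hoxb8, a homeobox gene of the trunk. Since the tiles were chosen for low levels in each pool, these values describe the runs and compare nothing between pools.

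The profile around unmethylated tiles was narrow. The mean level over tiles was 10.4 to 11% in the 500-base bins inside the tile, 29.2 to 30.8% in the next bins, 51.6 to 55.0% at 1.75 kb and 59.99 to 66.1% at 9.25 to 9.75 kb. Bins at 1.25 kb were at 44.2 to 46.8% in the 3 pools. For comparison, bins around all members stayed at 73.7 to 79.6% over the whole window. The surroundings of unmethylated tiles were therefore less methylated than those of the set as a whole out to the edge of the window, in each pool. Unmethylated tiles also lay closer to island tiles, at a median of 27 tiles against 45 for all members. The surroundings were not compared at equal distance from islands or gene starts.

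**Figure D2:**
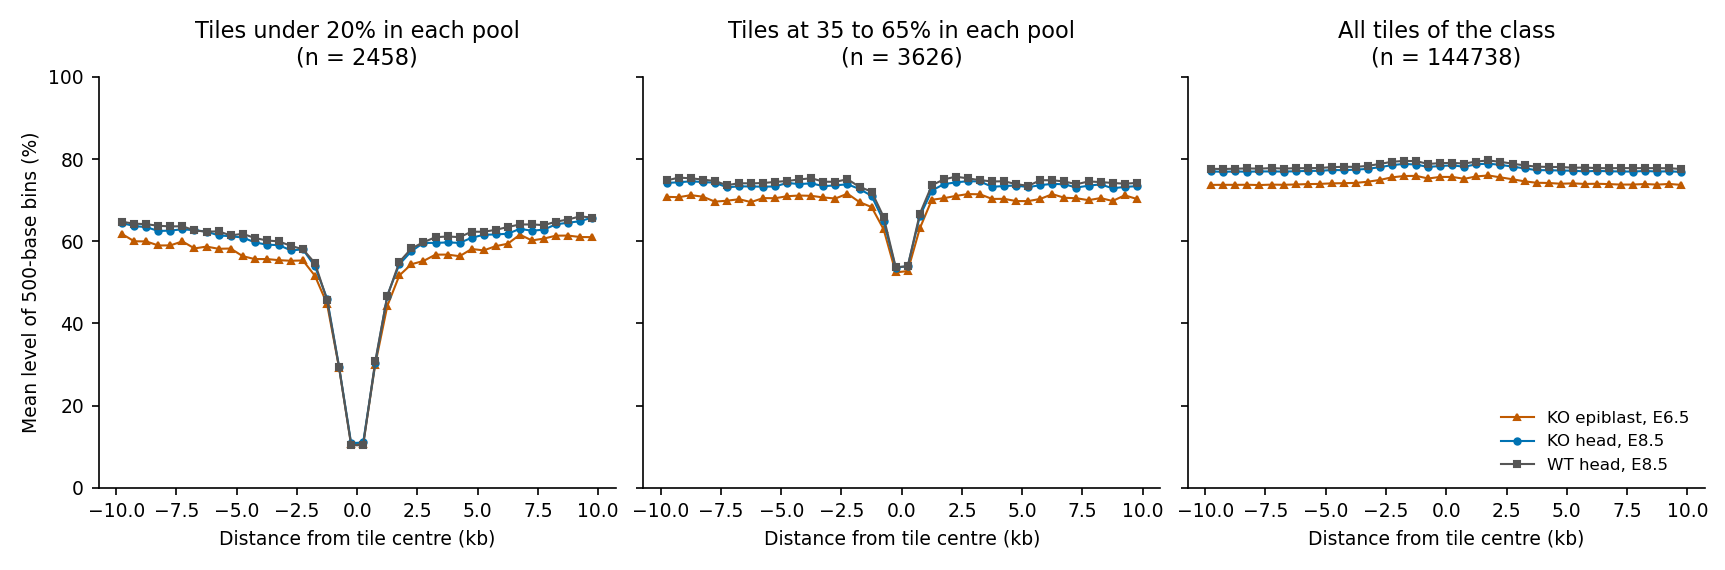
Mean methylation level of 500-base bins with at least 5 reads against the distance from the tile centre in kb, for tiles under 20% in each pool (n = 2458), tiles at 35 to 65% in each pool (n = 3626) and all tiles (n = 144738). Lines are KO epiblast, KO head and WT head pools. The classes were formed on the level at the centre, so the central dip itself is not a result. The flanks did not enter the classes, and they were not compared at equal distance from islands.

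Tiles at 35 to 65% in each pool could be made of CpGs that are each partly methylated or of methylated next to unmethylated CpGs. Among their single CpGs with 10 or more reads over the 3 pools (n = 16629), 64.9% were between 20 and 80%, 17.1% were under 20% and 18% at 80% or more. The corresponding shares over all members (n = 639251) were 29.6%, 6.35% and 64.1%. The left and right 500 bases of such tiles differed by a median of 27.6 points, and by 40 points or more in 29.3% of 3338 tiles, against 8.57 points and 4.90% of 127660 tiles over all members. Single CpGs of both kinds were thus seen, and left and right differed by 40 points or more in a minority of these tiles. The contrast with all members was not made at equal level. The median member was above 80% in each pool, which leaves little room for a difference of 40 points or for CpGs under 80%. Counting spread is also greatest in the middle of the scale. How much of the contrast remains at equal level was not tested. Part of the spread of single CpGs, and of the difference between left and right, comes from counting few reads.

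A handful of tiles had very high read depth, and these take up the extremes when tiles are ranked by reads. In 262 tiles (0.181%) at least 1 pool exceeded 5 times its median reads, and together they held 18.5%, 10.6% and 11.2% of the reads of the set in KO epiblast, KO head and WT head, up to 200299 reads in a tile. Their median level was 26.7% in the KO epiblast against 73.8% and 74.8% in the heads. The 5 tiles with the most reads among those under 10% were all of this kind. They were at chr1:24620000-24622999 (3 tiles), chr2:22444000-22444999 and chr12:98299000-98299999, with 4690 to 14173 reads a tile and levels of 0.328 to 0.684%. The 5 with the most reads at 35 to 65% were likewise deep: chr4:3017000-3017999, chr12:68160000-68160999 and chr11:3002000-3004999 (3 tiles), with 473 to 2581 reads and levels of 44.0 to 63.5%. Read pile-ups of this kind can come from sequence present in more copies than the reference holds, and that was not tested.

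At usual depth, the deepest tiles under 10% (chosen after these values were seen) included chr16:21211000-21211999, at 4.85% of 103 reads, 3.39% of 177 and 5.49% of 164 in KO epiblast, KO head and WT head, 6.63 kb from the start of the receptor gene Ephb3. The tile chr6:121133000-121133999 spans the start of Pex26, which encodes a peroxisome biogenesis factor. It was at 0% of 139 reads in the KO epiblast (95% Wilson interval 0 to 2.69%), 6.09% of 115 in the KO head and 2.37% of 169 in the WT head. Among partly methylated tiles, chr9:115058000-115058999 was at 45.2%, 52.2% and 49.3% of 126, 113 and 150 reads. That tile stayed close to the middle of the scale in all pools, with intervals of 36.8 to 53.9%, 43.1 to 61.2% and 41.4 to 57.3%.

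CpG spacing marked a repeated part of the set. Runs of 5 consecutive CpG spacings that recur in 50 or more tiles of the genome (2322 such runs) were found in 7533 members. Their medians were 82.6%, 86.6% and 86.8% in KO epiblast, KO head and WT head, against 80.4%, 83.9% and 84.8% for the 137205 others, and 1.17%, 0.863% and 0.996% of them were under 20%, against 2.73%, 3.14% and 3.41%. The most common run had CpGs every 2 bases, CGCGCGCGCGCG, and occurred in 996 members with medians of 77.5%, 83.9% and 85%, of which 12 were under 20% in each pool. Only 33.3% of tiles with a recurring run reached the read minimum, against 61.7% of the others. Reads that fit several places are commonly dropped by aligners, and how the authors treated them is not given in the sources used here.

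The level varied by a few points with the distance between CpGs. Leaving out the deep tiles, CpGs with another CpG 2 to 9 bases away were at 76.2%, 79% and 79.6% over all their reads in KO epiblast, KO head and WT head. CpGs whose nearest neighbour was 40 to 79 bases away were at 73.5%, 75.2% and 76.3%. The trend was not steady: in the KO epiblast CpGs at 10 to 19 bases (76.2%) equalled the closest ones, and CpGs 80 or more bases apart were at 74.3%, 75.3% and 76.3%, no lower than those at 40 to 79.

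Tiles of this density that held a gene start were more often unmethylated than the others. Unique matches of CpG spacing placed 19295 of 32851 RefSeq promoters, and 3011 of them, from 2732 genes, had their start in 2725 member tiles (1.88% of the set, against 5.31% of all tiles tested). Of these tiles 18.5%, 22.7% and 24.8% were under 20% in KO epiblast, KO head and WT head, against 2.35%, 2.64% and 2.87% of tiles with no matched start. Their medians of 64.3%, 66.7% and 68.4% still lay on the methylated side. They held a median of 21 CpGs, against 19 in tiles with no matched start, and the shares were not compared at equal CpG number. Within the start tiles the unmethylated stretch was often shorter than the tile. Over the 2288 tiles with enough reads, the 300 bases at the start had a median of 62.9% and the rest of the tile 70.6%, with the reads of the 3 pools summed. In the 103 start tiles at 35 to 65% in each pool the start window was at 39.2% and the rest at 57.3%, and 26 windows were under 20%, against 1 of the remainders. In the 397 at 80% or more the window (89.8%) and the rest (88.9%) were close.

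The median level of the start tile fell from each class of RNA to the next higher one. For 1104 genes whose matched starts all lay in 1 member tile, the median level in the WT head was 74.6% at under 0.1 FPKM (n = 599), 27.3% at 0.1 to 1 FPKM (n = 231), 11% at 1 to 10 FPKM (n = 173) and 7.37% at 10 FPKM or more (n = 101). In the KO head the medians were 71.8%, 42.9%, 13.7% and 7.73%, and in the KO epiblast 70.0%, 42.6%, 22.0% and 12.2%. The order was the same in the 3 pools, with wide quartiles: at 0.1 to 1 FPKM in the WT head the middle 50% ran from 10.5 to 71.0%. Starts under 20% were 17.4% of the lowest and 79.2% of the highest class there. Methylation and RNA came from different samples, and genes are not independent replicates, so no p is given. The classes were not compared at equal CpG number, and only starts with at least 5 CpGs could be matched.

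**Figure D3:**
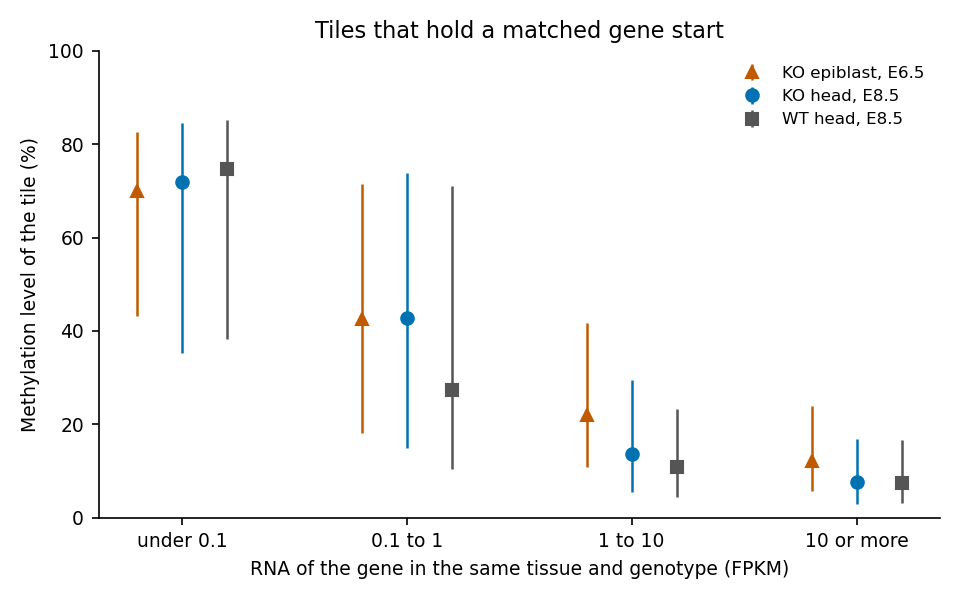
Median methylation level of the tile holding the gene start (points, with bars for the quartiles) by FPKM class of the gene, for 1104 genes in KO epiblast, KO head and WT head. The median falls from 70.0 to 74.6% at under 0.1 FPKM to 7.37 to 12.2% at 10 FPKM or more.

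Among starts under 10% in each pool, 128 belonged to genes of the RNA table, and 35 of these genes had 10 FPKM or more in the WT head. Gja1, which encodes the gap junction protein connexin 43, was at 0% of 56 reads in the KO epiblast, 1.85% of 54 in the KO head and 5.36% of 56 in the WT head. Its RNA was at 143, 275 and 181 FPKM in the same groups. Fis1, a mitochondrial fission factor, was at 0%, 6.94% and 8.25% with 164 to 218 FPKM in these 3 groups. Ddx47, an RNA helicase, was at 3.33%, 2.44% and 3.25%, and Med6, a Mediator subunit, at 0%, 0% and 3.88%. Gabarap, an autophagy factor, was at 9.68%, 4.76% and 6.90% of only 21 to 31 reads. These genes were named, as the 6 with the highest WT head FPKM in their class, after their values were seen. The sixth, Lars2, was at 0%, 8.06% and 1.55%; its transcripts include a stretch resembling ribosomal RNA, so its FPKM is uncertain.

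The reverse pairing, RNA from a gene whose matched start was methylated, was seen for few genes. Of 183 starts at 80% or more in each pool, 125 had under 0.1 FPKM in the WT head and 12 had 10 FPKM or more. Nt5dc2, a nucleotidase family member, was at 96.0% of 25 reads in the KO epiblast, 90.3% of 72 in the KO head and 88.9% of 54 in the WT head, with 120 FPKM in the KO epiblast and 124 in each head. Dctd, the dCMP deaminase, was at 100%, 100% and 85.2%, with 37.1, 32.9 and 67.4 FPKM. Vrk1, a nuclear kinase, was at 88.5%, 93.1% and 88.0%, and Egfl7, an endothelial secreted factor, at 93.3%, 86.2% and 83.7%. A gene can have further starts in other tiles, and which start the RNA came from cannot be read from FPKM per gene.

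Partly methylated start tiles showed where an average hides a boundary. Zc3hc1, a zinc finger gene with 52.8 FPKM in the WT head, had tile levels of 45.2%, 59.1% and 50% in KO epiblast, KO head and WT head. The 300 bases at its start were at 0% of 14 reads, 0% of 7 and 9.09% of 11. Jmjd8, a JmjC-domain gene, was at 58.5%, 39.4% and 37.5% over the tile and at 0% of 8 reads, 2.17% of 46 and 0% of 65 in the window. Few or no methylated reads were thus seen at both starts, inside tiles of intermediate level. For Zc3hc1 this rests on 7 to 14 reads a pool. By contrast, Pmvk, an enzyme of the mevalonate pathway, was at 51.2%, 61.0% and 56.9% over the tile and at 55.6%, 75.8% and 63.0% in the window, with 25.1 FPKM in the WT head.

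The first comparison set the KO head against the WT head, which share stage and tissue and differ in genotype. The tiles as a whole moved little. The median difference was -0.57 points (KO minus WT), and 68213 tiles were higher and 75612 lower in the KO. A tile was called different when Fisher's exact test on its methylated and unmethylated reads gave a two-sided p under 0.05 after Benjamini-Hochberg adjustment over all 258057 tiles and the levels differed by 20 points or more. By this rule 534 tiles (0.369%) were higher and 623 (0.430%) lower in the KO head. Over all tiles tested 0.439% were called higher and 0.353% lower, so the share called higher was below that background and the share called lower above it. An unadjusted p under 0.05 was reached by 16133 tiles. A difference of 20 points with no test was present in 4360 tiles upward (3.01%) and 5542 downward (3.83%), against 3.31% and 3.97% of all tiles tested.

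Reads of a tile are not independent, since several CpGs sit on 1 molecule and copies cannot be recognised, and the test then counts too many observations. The 2 strands of a tile in 1 pool were used to gauge the extra spread. In tiles with enough reads on both strands, the strands differed with an SD of 17.9 points in the KO head and 17.2 in the WT head, where counting alone gives 11.2 and 10.8, a variance ratio of 2.54 and 2.55. The same strand differed between the 2 heads with an SD of 14.8 points, less than the strands differed within a head. The difference between strands was itself partly shared by the heads (Pearson's r = 0.298 across 63590 tiles, which are not independent), so it holds more than the dependence of reads, and the reads of the strands can also lie on different CpGs. With the variance multiplied by the factor estimated from the strands (2.58), in a two-sided normal test adjusted in the same way, 8 tiles of the set were called, 4 higher and 4 lower. Most calls of single tiles below thus hold with counting error alone and not with that larger spread.

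More CpGs went with more calls, in both directions. Tiles of 15 to 19 CpGs were called higher in the KO head in 0.233% and lower in 0.359% of cases, tiles of 20 to 24 CpGs in 0.444% and 0.521%, and tiles of 25 to 29 CpGs in 0.848% and 0.556%. Higher calls thus outnumbered lower ones among the densest tiles only. Reads per tile rise with CpG number, so the test has more reads there. Tiles with a recurring spacing run were called higher in 1.22% and lower in 0.956%, against 0.322% and 0.402% of the others. Those tiles held a median of 21 CpGs, against 19 in the others, and the shares were not compared at equal CpG number.

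The largest difference upward by the naming rule (40 or more reads in each pool and the same sign on both strands) was at chr14:77139000-77139999, with 22 CpGs. Its level was 46.3% of 54 reads in the KO epiblast, 77.4% of 62 in the KO head and 15.2% of 79 in the WT head, with 95% Wilson intervals of 65.6 to 86.0% and 8.91 to 24.7% for the heads. The difference between heads was 62.2 points (Fisher's exact test, adjusted p = 3.06e-10), and 65.8 points over the 18 CpGs read in both heads. This tile was 62.1 kb from the nearest matched start, and it was also called with the strand factor. At chr19:57133000-57133999 the levels were 17.8%, 62.9% and 11.6% of 45, 62 and 86 reads, and 41.7 points remained over shared CpGs. The tile chr10:59999000-59999999 was at 59.1%, 62.4% and 10.1%, and its difference of 52.3 points fell to 26.1 over shared CpGs. Tiles chr3:96214000-96214999 (35.2%, 67.2% and 14%) and chr12:106217000-106217999 (58.1%, 90.6% and 38.6%) went from 53.3 to 21.1 and from 52.0 to 26.0 points in the same way. In the last of these the strands differed, with 13.2 points on one and 74.8 on the other.

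The largest difference downward was at chr17:36195000-36195999, with 17 CpGs, at 54.2% of 48 reads in the KO epiblast, 9.62% of 52 in the KO head and 79.5% of 44 in the WT head. The intervals of the heads were 4.18 to 20.6% and 65.5 to 88.8%, the adjusted p of Fisher's exact test was 7.14e-09, and the difference over the 15 shared CpGs was -68.6 points. With the strand factor its adjusted p was 0.0489. At chr2:31344000-31344999, 18.7 kb from the start of the argininosuccinate synthase gene Ass1, the levels were 81.7%, 38.5% and 82.8%. There the KO epiblast and the WT head were alike and the KO head was low, by 44.4 points against the WT head and by 48.9 over shared CpGs. Tiles chr15:98824000-98824999 (26.1%, 17.0% and 62.3%), chr7:133103000-133103999 (60.9%, 27.4% and 70.8%) and chr16:91899000-91899999 (58.1%, 27.5% and 75%) had differences of -42.6, -42.9 and -25.4 points over shared CpGs.

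Over all called tiles, restricting both heads to the CpGs read in both left 408 of the 534 higher and 466 of the 623 lower tiles at 20 points or more. The median difference went from 33.9 to 27.9 points and from -32.9 to -26.3. The other calls fell under 20 points, and 5 higher and 4 lower tiles had no difference or the opposite sign. Tiles called for a large difference can also shrink when fewer of their reads are used. That was not separated from reads falling on other CpGs of the tile.

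**Figure D4:**
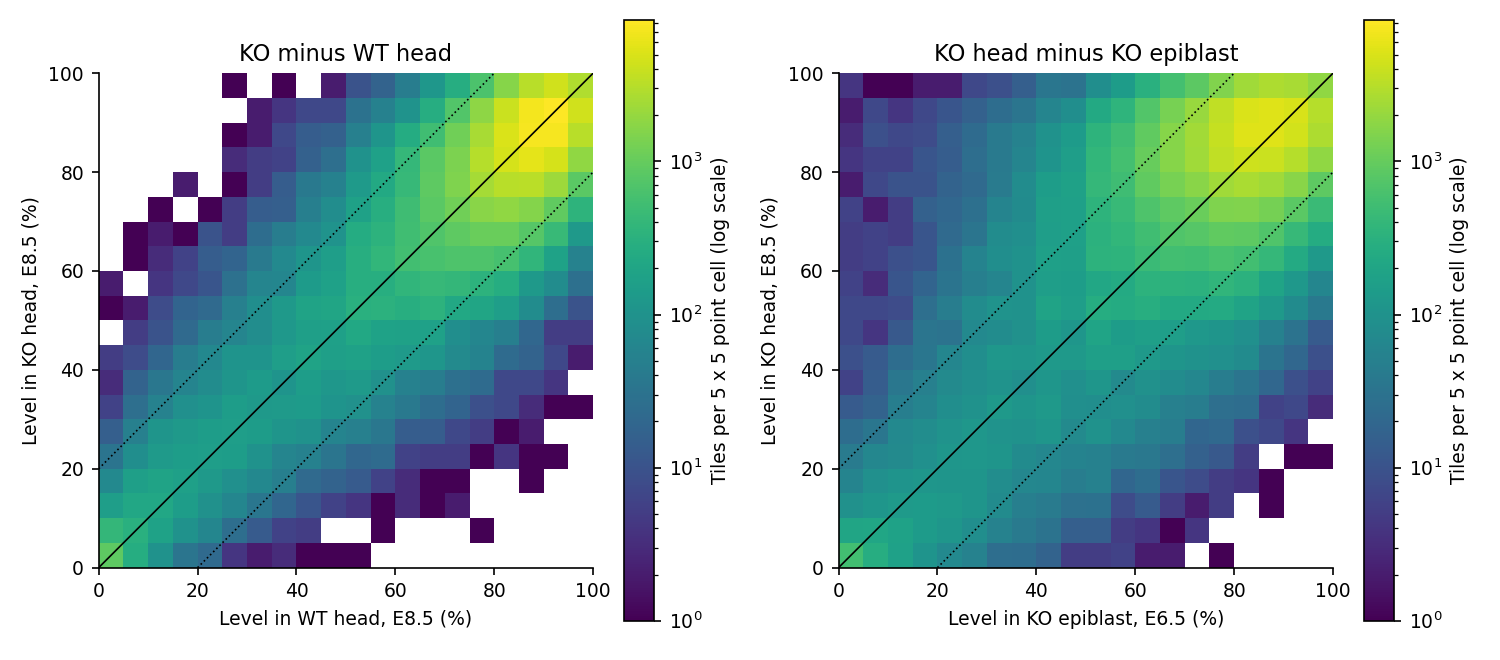
Levels of the 144738 tiles in pairs of pools as counts of tiles per 5-point square, on a logarithmic colour scale: KO head against WT head, and KO head against KO epiblast. The solid line marks equal levels and the dotted lines a difference of 20 points; the second cloud is wider (SD 14.6 points, against 10.7) and the median tile lies above the line in both at 20 to 80% on the horizontal axis and below it at 80 to 100%, classes formed on a level that enters the difference.

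At gene starts, 21 of 2725 tiles (0.771%) were called higher and 15 (0.55%) lower in the KO head, against 0.439% and 0.353% of all tiles tested. With the strand factor none was called. Start tiles had more reads, with medians of 54 (KO head) and 58 (WT head) against 45 and 48 in the other members, so the test has more reads there. Of the 22 called starts of genes in the RNA table, 16 had under 1 FPKM in both heads. Asb4, which encodes a substrate adaptor of a ubiquitin ligase, was at 13.9% of 36 reads in the KO epiblast, 62.5% of 32 in the KO head and 9.68% of 31 in the WT head (Fisher's exact test, adjusted p = 0.0048). The difference of 52.8 points was 60.7 over 10 shared CpGs. In the first 500 bases after its start the levels were 11.1% of 27 reads, 70.6% of 17 and 0% of 14. These reads are counts summed over neighbouring CpGs, so fewer molecules can lie behind them. Its RNA was at 12.6 FPKM in the KO head and 6.01 in the WT head, so the more methylated start went with the higher FPKM. Mest, an imprinted gene, was at 57.5%, 35% and 12.2%, with 546 FPKM in the KO head and 1380 in the WT head, and its difference of 22.8 points was 19.5 over shared CpGs. Col6a6, a collagen gene, went from 16.3% in the WT to 50.9% in the KO head (30.3 points over shared CpGs), at 0.0202 FPKM or less in both.

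Lower in the KO head were Parvg, a focal adhesion gene, at 61.0%, 30.1% and 70.6% in KO epiblast, KO head and WT head, Nfam1, an immune receptor gene, at 72.3%, 28.0% and 67.5%, and Hepacam, a glial adhesion gene, at 50%, 50% and 82.4%. Over shared CpGs the differences between heads were -32.6, -36.2 and -30.9 points, and these genes had under 0.5 FPKM in both heads. Cyp11a1, the enzyme that starts steroid hormone synthesis, shows how placement of reads enters a tile. Its tile was at 13.8%, 18.3% and 58.2%, a difference of -39.9 points that was -14.5 over shared CpGs. The WT head had 46 reads at 89.1% between 1000 and 500 bases before the start, where the KO head had 15 reads at 66.7%. In the 500 bases after the start the heads were at 1.96% (KO) and 0% (WT). For Adamtsl2 and Oas1c the difference over shared CpGs had the opposite sign (-0.594 and 0.912 points, from 41.0 and -34.8), and for Mrps31, a mitochondrial ribosome gene, -24.0 points became -1.63.

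The second comparison set the KO head against the KO epiblast, in which stage and tissue differ together and the genotype is shared. Its KO head pool is that of the first comparison, so the calls of both share their reads. Tiles were more methylated in the head: the median difference was 2.41 points, against 1.14 over all tiles tested, and 83095 tiles were higher and 60719 lower. By the same test 5113 tiles (3.53%) were called higher and 2232 (1.54%) lower, where over all tiles 3.09% and 1.8% were called. An unadjusted p under 0.05 was reached by 25428. Differences of 20 points with no test were upward in 15093 tiles (10.4%) and downward in 7956 (5.5%), against 9.84% and 6.04% of all tiles tested. With the strand factor 344 tiles were called, 301 higher and 43 lower. Over shared CpGs 4285 of the 5113 (83.8%) and 1663 of the 2232 (74.5%) kept 20 points or more.

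The balance of directions differed with position. Island tiles (n = 14105) were called higher in 0.723% and lower in 2.08%, and tiles of equal CpG number near islands in 2.48% and 4.14%, so that lower calls outnumbered higher ones there and not in the set. The medians of island tiles were 4.96% in the KO epiblast, 1.78% in the KO head and 1.41% in the WT head, so the median island tile was higher in the epiblast pool. Called higher tiles had a median of 55.0% in the epiblast and 91.2% in the KO head, both levels that entered the call. Their median in the WT head, which the call did not use, was 85.4%, close to the 84.9% of all members. Called lower tiles went from 84.3 to 43.8%, with 57.9% in the WT head. By CpG number, higher calls rose from 3.04% at 15 to 19 CpGs to 4.95% at 25 to 29, and lower calls from 1.29 to 2.41%.

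The 5 tiles with the largest gains by the naming rule were all deep in the epiblast, with 143 to 717 reads there against 46 to 79 in the KO head. At chr9:99035000-99035999, 5.13 kb from the start of the phosphoinositide kinase gene Pik3cb, the level was 13.0% of 347 reads in the KO epiblast, 100% of 54 in the KO head and 64.3% of 42 in the WT head. The difference of 87.0 points was 35.5 over shared CpGs. The tile chr6:35218000-35218999 went from 7.47 to 93.6%, with 86.3% in the WT head and 62.4 points over shared CpGs. At chr6:98810000-98810999 (4.32 to 84.8%), chr14:48842000-48842999 (14 to 93.5%) and chr11:82623000-82623999 (17.7 to 96.2%) the shared CpGs gave 22.6, 39.98 and 27.3 points. Each of these was smaller than the difference of the whole tile. In all 5 tiles the low epiblast level sat on one strand, at 0.649 to 10.2%, while the other strand was at 60 to 84.2%. The gains were 79.0 to 95.2 points on the first of these strands and 7.89 to 31.3 on the other.

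The largest losses had usual depth and held over shared CpGs. At chr10:78209000-78209999, with 29 CpGs and 0.375 kb from the start of Gm30400, the level was 87.1% of 62 reads in the KO epiblast (95% Wilson interval 76.6 to 93.3%), 10.1% of 99 in the KO head (5.58 to 17.6%) and 14.8% of 108 in the WT head. The difference was -77.0 points (Fisher's exact test, adjusted p = 2.1e-20), or -80.6 over shared CpGs, and the adjusted p with the strand factor was 2.44e-06. At chr12:112686000-112686999, 5.63 kb from the start of Tnfaip2, a gene induced by tumour necrosis factor, the levels were 72.1%, 8.57% and 9.80%, with -58.8 points over shared CpGs. The 2 heads were alike at both tiles. At chr12:81126000-81126999 (86.5%, 25% and 65.6%) they differed by 40.6 points over the tile and by 20.98 over 12 shared CpGs, with the KO head lower. At chr7:26904000-26904999 the levels were 93.2%, 34.1% and 50.7%, and the heads differed by 0.292 points over shared CpGs. The fall from the KO epiblast to the KO head was uneven there, -13.1 points on one strand and -71.9 on the other. At chr15:101310000-101310999 (77.6%, 18.5% and 46.8%) the KO head was lower than the WT head by 16.7 points over shared CpGs, and Fisher's exact test over the tile did not pass between the heads (adjusted p = 0.0899).

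At gene starts the calls were even: 96 of 2725 tiles (3.52%) were higher and 106 (3.89%) lower in the KO head, against 3.09% and 1.8% of all tiles tested. With the strand factor 11 were called, 5 higher and 6 lower. Start tiles had more reads than the other members here as well. Of 117 called starts of genes in the RNA table, 70 had under 1 FPKM in both KO groups. Fggy, a carbohydrate kinase gene, had the largest gain, from 11.8% of 34 reads in the KO epiblast to 87.2% of 39 in the KO head, with 71.9% of 32 in the WT head. The difference of 75.4 points (Fisher's exact test, adjusted p = 1.16e-08) was 81.4 over 9 shared CpGs and was called with the strand factor (adjusted p = 0.0164). Its RNA was at 6.24 FPKM in the KO epiblast, 12.7 in the KO head and 2.01 in the WT head, so FPKM and level did not go in opposite directions in the KO. Olfr212, an olfactory receptor gene, went from 28.1 to 89.7% and had 91.7% in the WT head, with 0 FPKM listed in the 3 groups. Casq2, a calcium-binding protein of muscle, went from 30% of 20 reads to 81.8%, with 44.5 points over 8 shared CpGs.

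Among losses, Ooep, an oocyte and embryo factor, went from 68.2% of 22 reads in the KO epiblast to 7.84% of 102 in the KO head, with 17.1% in the WT head and -59.6 points over shared CpGs. Its RNA was lower in the heads (0.709 FPKM in the KO and 0.936 in the WT) than in the KO epiblast (6.13). Plin2, a lipid droplet coat protein, went from 57.1% of 28 reads to 2.63% of 76, with 5.45% of 55 in the WT head. The difference of -54.5 points was -55.6 over 12 shared CpGs (adjusted p with the strand factor 0.0143), and in the 500 bases after the start the 3 pools were at 66.7%, 0% and 2.33%. Its RNA was at 5.19 FPKM in the KO epiblast, 11.8 in the KO head, 11.3 in the WT epiblast and 27.3 in the WT head. Usp21, a deubiquitinase, went from 30% of 70 reads to 1.85% of 162, with -21.9 points over shared CpGs and 20.04 and 28.3 FPKM in the KO groups. Arpp21, a neuronal phosphoprotein gene, went from 76.6 to 26.2%, with 23.5% in the WT head and -52.2 points over shared CpGs. For Cisd3, Kbtbd4, Sars and Zfp445, genes with 10 FPKM or more, drops of 22.6 to 40.4 points became 8.19, -0.686, -1.51 and -4.56 points over shared CpGs.

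**Figure D5:**
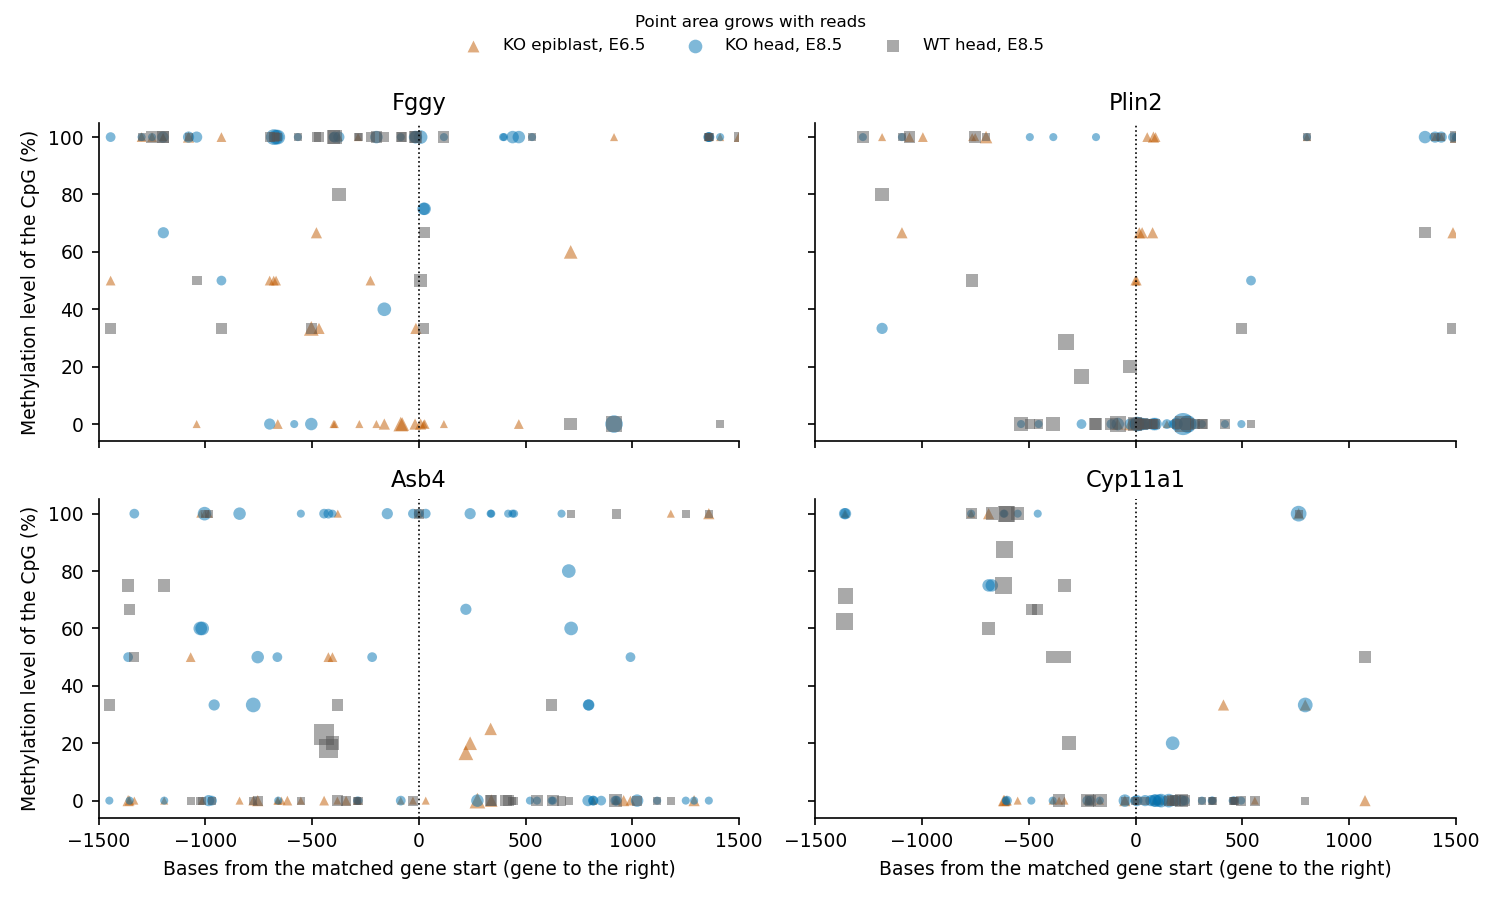
Methylation level of single CpGs around the starts of Fggy, Plin2, Asb4 and Cyp11a1 against the distance from the start in bases, with the area of a point growing with its reads. Fggy is low in the KO epiblast and higher in both heads within 500 bases of its start, Plin2 is the reverse after its start, Asb4 is high in the KO head, and Cyp11a1 is low at its start in all pools with methylated WT head reads farther upstream.

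RNA of the enzymes that act on such tiles is given as background values of the 4 RNA groups. Dnmt3b was at 614 (WT) and 726 FPKM (KO) in the epiblast and 55.2 and 93.4 in the head, Dnmt3a at 45.2 and 48.7 against 6.51 and 7.21, and their cofactor Dnmt3l at 6.00 and 7.52 against 0.334 and 0.532. The maintenance pair Dnmt1 (13.5, 24.5, 17.8 and 14.5 FPKM in WT epiblast, KO epiblast, WT head and KO head) and Uhrf1 (55.2, 74.9, 72.9 and 61.5) stayed within a narrower range. Tet1 was at 5.53, 8.09, 2.50 and 3.24, Tet2 under 0.5 in each, and Tet3 at 1.86, 1.60, 3.27 and 2.86. The glycosylase gene Tdg was at 10.2, 7.91, 7.91 and 8.13. The genes of the CXXC-domain proteins Cxxc1 and Kdm2b, which bind unmethylated CpGs, were at 6.10 to 9.30 and 11.4 to 16.8 FPKM. RNA of Dnmt3a and Dnmt3b was lower in both heads than in both epiblasts. The median of the tiles was higher in both heads than in the KO epiblast. RNA and methylation came from different samples, and a link between them was not tested.

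Most of the markers fitted the tissue labels, with a difference between the heads. The epiblast genes Pou5f1, Nanog and Fgf5 were at 245, 46.8 and 79.2 FPKM in the WT epiblast and 451, 41.9 and 79.2 in the KO epiblast. In the WT head they were at 3.91, 1.59 and 1.70. In the KO head all 3 were higher than in the WT head, at 16.9, 8.27 and 6.94. The head genes Pax6, Six3 and Sox1 were under 0.1 in both epiblasts, and all 3 were lower in the KO head (4.59, 3.10 and 1.70) than in the WT head (19.5, 5.45 and 3.49). Otx2, listed for both tissues, was also lower in the KO head (62.8 against 87.4). It was at 111 in the WT and 118 in the KO epiblast, above both heads, so it does not set the head apart. These markers moved with genotype in the same heads whose tiles were compared, and their part in the methylation differences was not tested.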

How the data were processed

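Per the labels, methylation was read by STEM-seq and the replicates of a group were pooled. The authors deposited whole-number counts of methylated and unmethylated reads on each strand for 21342492 CpGs a pool. Column meanings were taken from the values, since the files have no header. The submitters' processing notes name Trim Galore, BS-Seeker2 and the build mm9, and for RNA TopHat2 (2.0.11) and Cufflinks (2.0.2). The deposited RNA values are FPKM, merged per group, and 4 FPKM columns were not used. FPKM give no depth.

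Reads, counted at each CpG, were summed over 1000-base tiles with Python 3.11.15, NumPy 2.4.6, SciPy 1.17.1 and pandas 2.3.3. A level is the methylated percent of a tile's reads, with 95% Wilson intervals, which cover counting error only. The tables give positions from 1. Fisher's exact test per tile was adjusted by Benjamini-Hochberg over 258057 tiles and was tested on simulated data. The simulated reads were independent of each other, so the simulation does not cover the extra spread seen between strands. Difference over shared CpGs means the mean of the differences of CpGs read in both pools, with Mantel-Haenszel weights.

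Tiles were named by rule: the 5 called tiles per comparison and direction with the largest difference (at least 40 reads in each pool and the same sign on each strand with 10 or more reads in each pool), the 5 longest runs under 20%, and the 5 tiles with the most reads at 35 to 65% and under 10%. Chromosome 18 is counted and not named. Gene starts were placed by matching CpG spacing of RefSeq promoters (250 bases before and 50 after the start, at least 5 CpGs). That step, the gene starts named (up to 6 per class and some called ones of 10 FPKM or more), the profiles, the shared-CpG differences and 2 filters on deep tiles were chosen after seeing the data. The set of tiles and the gene list of enzymes and markers were chosen with earlier results of these data known.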

Additional observations from a re-analysis of the deposited data

How the results depend on the processing

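No paired analysis was possible because the deposited methylation files pool the replicates of a group, and for the same reason no replicate could be left out. Of 80 results under 18 settings, medians stayed within the Wilson interval of a tile at the median level and depth. That interval reflects the reads of a single tile and is wider than the differences between the medians of the pools. Staying inside it therefore says little about shifts of that size. The called tiles (KO minus WT head 1157, KO head minus KO epiblast 7345) became 521 and 2448 with 40 or more reads (fewer tiles), 657 and 3693 with 20 to 29 CpGs, 500 and 3652 with 15 to 19 CpGs, 2 and 448 with every tile thinned to 20 reads, 8 and 344 with the variance factor from the strands, and 9902 and 23049 with 20 points and no p. With 30 points the first was 743, and with 20 points on each strand the second was 2878. Higher calls were 69.6% of the second and 87.5% with the strand factor, and 68.9% after centring on all tiles. Of the first they were 46.2%, and 39.4% with 15 to 19 CpGs. The share of tiles under 20% in KO epiblast, KO head and WT head was 4.43%, 5.18% and 5.52% with 40 or more reads, 4.32%, 5.15% and 5.69% with 20 to 29 CpGs, and 1.45%, 1.49% and 1.57% with 15 to 19. Without tiles over 5 times the median reads there were 1152 and 7246 calls. Of 67 named tiles and gene starts 20 were still called with the strand factor and 13 after thinning. Adamtsl2, Oas1c and Cisd3 reversed over shared CpGs (-0.594, 0.912 and 8.19 points), and whether this came from reads on other CpGs or from the use of fewer reads was not tested.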
